A study of Danio rerio with 4 samples.

Results

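The larval haemoglobin genes of zebrafish were measured in heads of noc4l mutants and siblings at 5 days post-fertilization (dpf). The genes were taken by symbol from the Ribo-seq table and joined to the RNA-seq table by Ensembl ID. A list of 9 symbols gave 10 gene IDs, 5 of alpha globins and 5 of beta globins, among 26662 gene IDs in all. The symbol hbae1.3 was attached to 2 IDs. ENSDARG00000088330, one of them, is named hbae1.2 in the annotation table used for names and is called so here.

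All fish were of the AB strain. The mutants carried a short CRISPR/Cas9 deletion in the fourth exon of noc4l that gives a premature stop codon, and the labels give the genotype of the siblings as WT. Noc4l is a nucleolar protein that takes part in making the small ribosomal subunit. RNA-seq and Ribo-seq, which sequences the stretches of mRNA that ribosomes protect from RNase (footprints), each had 1 library per genotype, so the study holds 4 libraries. No treatment of the living fish is given for them, and the sources used here do not say how many heads went into a library. Handling differed between the assays. For Ribo-seq the study describes cell suspensions digested with trypsin and exposed to the drug cycloheximide before lysis, whereas heads for RNA-seq were collected in TRIzol. The part of this difference in the comparisons between assays was not tested. The labels repeat a poly(A) mRNA protocol for the Ribo-seq samples, whereas a nuclease treatment and a density gradient belong to the Ribo-seq method as the study gives it.

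Haemoglobin carries oxygen in red blood cells. It is a tetramer of alpha-type and beta-type globin chains, each holding a heme, and red cells normally make both chains in near balance because an excess of either chain is harmful. Zebrafish switch from embryonic and larval globin genes to adult ones as they grow. Their alpha and beta genes lie side by side in mixed clusters, unlike the separate alpha and beta clusters of mammals. Embryonic alpha genes are named hbae and embryonic beta genes hbbe. In RefSeq's GRCz12tu annotation, hbbe1.1, hbae1.1, hbbe1.2, hbae1.2, hbbe1.3, hbae1.3 and hbae3 follow one another in a cluster of 11 globin genes that also holds the adult genes. The other 3 genes, hbbe3, hbbe2 and hbae5, lie beside hbae4 in a cluster of 4.

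Summed counts were 15018459 and 17394982 in the sibling and mutant RNA-seq libraries and 12180999 and 19823803 in the Ribo-seq libraries. The 4 most abundant loci of the Ribo-seq libraries held 51.1% of the counts in siblings and 19.0% in mutants. Counts were therefore scaled by TMM, which sets the bulk of genes equal between libraries (median log2 ratio of all measured genes 0.01 in RNA-seq and 0.02 in footprints). Scaling by total counts moves the footprint median to 0.74, and ratios of footprints are read relative to it. noc4l, the targeted gene, had 443 and 45 counts in RNA-seq and 93 and 15 in Ribo-seq, in sibling and mutant. By RNA its mutant to sibling log2 ratio was -3.58 (95% counting interval -4.07 to -3.15), and by footprints -4.01 (-4.94 to -3.25). A list of 12 head genes was measured in full in both assays, such as snap25a, a synaptic protein gene, with 5510 and 6125 RNA counts. Whole larvae would hold such RNA too, so this does not check the labelled tissue. Liver genes were present as well: 12 of them held 0.902% of sibling and 0.671% of mutant RNA counts, against 0.250% and 0.297% for the head genes. No replicate check and no test were possible with single libraries. All intervals below are 95% counting intervals and cover neither the spread between fish nor that between library preparations.

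Haemoglobin gene RNA was lower in the mutant library. The 10 genes together had 18465 RNA counts in siblings and 9032 in mutants, which TMM scaled to 1265 and 505 CPM (counts scaled to library size). This is 2.51-fold lower, a log2 ratio of -1.33 (-1.36 to -1.29). Their footprints numbered 10273 (1080 CPM) and 11613 (458 CPM), 2.36-fold lower after scaling, with a log2 ratio of -1.24 (-1.28 to -1.20). Unscaled footprint counts were thus higher in the mutant library, which was the deeper and held the smaller share in the 4 loci. Scaled by total counts, the footprint log2 ratio was -0.53, which lies 1.26 below the median of all genes. This distance is the same with TMM by construction, since a change of scaling moves all genes alike. Translation efficiency, the footprint ratio divided by the RNA ratio, had a log2 ratio of 0.09 (0.03 to 0.14). With totals that leave out the 4 loci it was -0.0096, outside that interval and of the other sign, so no direction is read from it. The median gene stands at -0.11 in that setting. Translation efficiency was 0.72 when scaled by total counts, where the median gene stands at 0.62. In each of these settings the sum lay 0.10 above the median gene, which is again fixed by construction and no separate check. Scaling to the bulk of genes removes a change in translation shared by all genes. The study reported lower nascent protein synthesis in mutants by puromycin incorporation, which such a ratio cannot show.

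A gene was called lower or higher in mutants where the ratio was 2 or more, and measured where the libraries of an assay together gave it 100 counts or more. Of the 10 haemoglobin genes 8 reached this count in each assay, and hbae5 and hbbe3 did not. By RNA 5 of the 8 were lower and 0 higher, with a median log2 ratio of -2.21. Among all 17247 measured genes, 6.16% were lower and 3.14% higher. By footprints 6 of the 8 were lower and 0 higher, with a median of -1.51, against 3.61% lower and 1.89% higher among 15733 genes. Scaled by total counts, 2 of the 8 were lower and 0 higher by footprints, against 1.27% and 22.1% of all genes. These 8 all had a log2 ratio below 0 in both assays, and at a ratio of 1.5 all 8 were lower by RNA, against 12.6% of all genes. In bulk heads, fewer red cells and less globin RNA per red cell cannot be told apart.

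**Figure D1:**
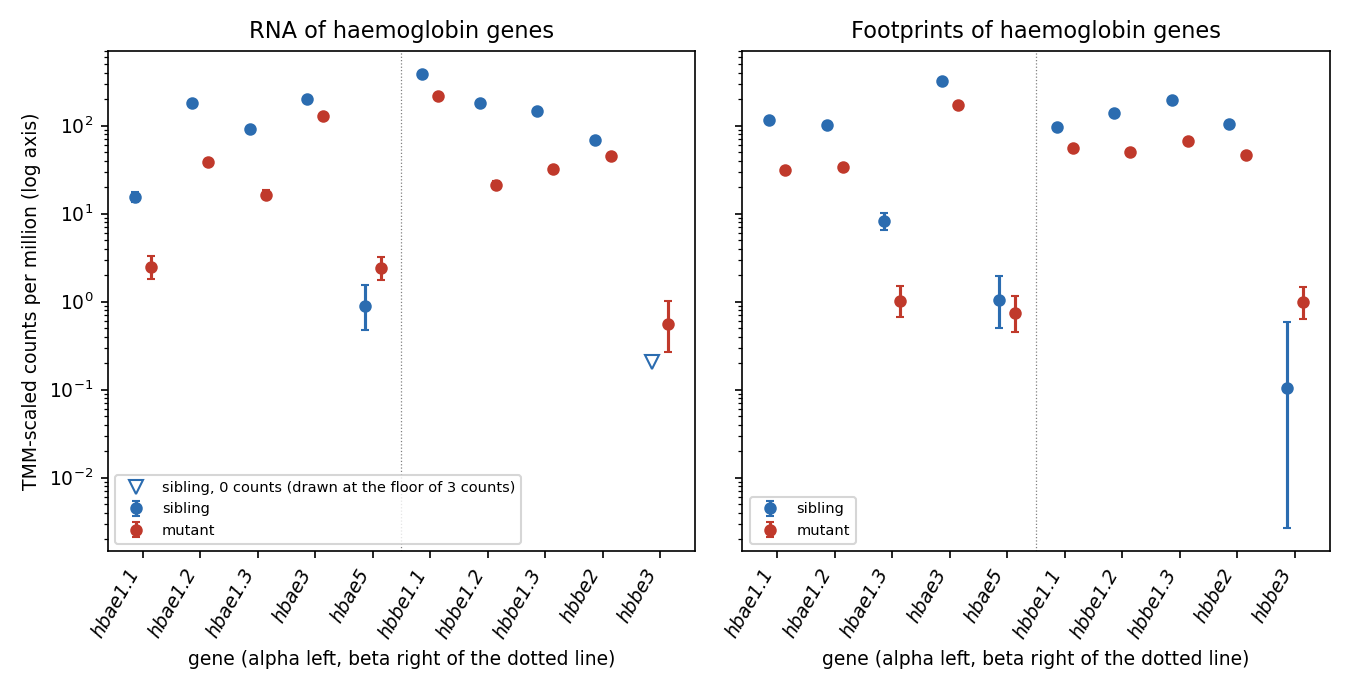
TMM-scaled CPM (log axis) of each haemoglobin gene in the sibling (blue) and mutant (red) libraries, RNA-seq left and Ribo-seq right. Points are single libraries, bars are exact Poisson 95% intervals of the counts, and the open triangle stands for 0 counts drawn at the floor of 3 counts. In both panels the mutant point lies below the sibling point for all genes except hbae5 and hbbe3 by RNA and hbbe3 by footprints.

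Among the alpha genes, hbae3 (ENSDARG00000079305) had the highest level per length in every library, although in sibling RNA its interval overlapped that of hbae1.2. Its RNA stood at 332 FPKM (fragments per kilobase of transcript, scaled to depth) in siblings and 223 FPKM in mutants, rank 255 and rank 305 among all genes. hbae3 had 2935 and 2282 RNA counts, a log2 ratio of -0.66 (-0.74 to -0.58). Its footprints numbered 3015 in siblings and 4378 in mutants, a log2 ratio of -0.88 (-0.94 to -0.81). Neither ratio passed the 2-fold rule, and the mutant library was the lower in both assays after scaling.

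The hbae1 genes, named as copies of an alpha globin gene, had the larger differences among the alphas. hbae1.2 (ENSDARG00000088330) had 2623 RNA counts in siblings and 687 in mutants, a log2 ratio of -2.23 (-2.35 to -2.11). hbae1.3 (ENSDARG00000089124) had 1324 and 294, a log2 ratio of -2.46 (-2.65 to -2.28). hbae1.1 (ENSDARG00000089475) had 228 and 44, a log2 ratio of -2.65 (-3.17 to -2.20). All 3 passed the size rule, and each interval lies below the interval of hbae3. In footprints the copies came in another order. hbae1.1 had 1091 counts in siblings and 794 in mutants (-1.87, from -2.01 to -1.74). hbae1.2 had 978 and 859 (-1.60, from -1.74 to -1.47), and hbae1.3 had 78 and 26 (-2.98, from -3.70 to -2.34).

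The order of the copies by level per length was hbae1.2, hbae1.3, hbae1.1 in RNA (319, 159 and 24.0 FPKM in the sibling library). It was hbae1.1, hbae1.2, hbae1.3 in footprints (127, 114 and 8.40 TPM, a level per length that sums to the same total in each library). The estimated counts of the hbae1 and hbbe1 copies, 6 of the 10 IDs, were not whole numbers, while those of hbae3, hbae5, hbbe2 and hbbe3 were whole in all 4 libraries. Reads that match several copies can thus be split among them, and values of a single copy, above all ratios between the assays, are uncertain. The sum of the hbae1 copies does not depend on that split as long as it stays within these copies. It was 4175 and 1025 counts in RNA (-2.32, from -2.42 to -2.22) and 2147 and 1679 in footprints (-1.77, from -1.86 to -1.68).

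hbbe1.1 (ENSDARG00000113599) was the most abundant haemoglobin gene by RNA, at 635 FPKM in siblings and 386 FPKM in mutants, rank 151 and rank 188 of all genes. It had 5557 and 3911 RNA counts, a log2 ratio of -0.80 (-0.86 to -0.74). Its footprints were 921 and 1393, a log2 ratio of -0.82 (-0.94 to -0.70). Both ratios stayed under the 2-fold rule and were close to each other. In footprints hbbe1.1 had fewer counts than its copies in the sibling library, and the length behind its TPM was 0.626 of that of hbbe1.2, whereas the RNA-seq table used equal lengths.

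The other copies of this beta gene differed more. hbbe1.2 (ENSDARG00000115405) had 2628 RNA counts in siblings and 378 in mutants, the lowest RNA ratio of all 8 measured genes at -3.09 (-3.25 to -2.94). Its footprints were 1336 and 1284, a log2 ratio of -1.47 (-1.58 to -1.36). hbbe1.3 (ENSDARG00000087390) had 2146 and 571 RNA counts (-2.20, from -2.34 to -2.07) and 1841 and 1674 footprint counts (-1.55, from -1.65 to -1.46). Summed over all 3 copies, hbbe1 had 10331 and 4860 RNA counts, a log2 ratio of -1.38, and 4098 and 4351 footprint counts, a log2 ratio of -1.33.

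hbbe2 (ENSDARG00000045143), the main beta gene of the smaller cluster, had whole counts in every library. It had 1011 RNA counts in siblings and 812 in mutants, a log2 ratio of -0.61 (-0.75 to -0.48). In footprints it had 1002 and 1161 counts, a log2 ratio of -1.20 (-1.33 to -1.08). hbbe2 passed the 2-fold rule by footprints and not by RNA.

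By level per length, the order of the RNA in siblings was hbbe1.1, hbae3, hbae1.2, hbbe1.2, hbbe1.3, hbae1.3, hbbe2, hbae1.1, hbae5 and hbbe3. The counting intervals of hbae3 and hbae1.2 overlapped there, as did those of hbae1.2 and hbbe1.2. In mutant RNA hbbe1.1 and hbae3 remained first and second, and hbbe2 came next at 79.1 FPKM, with an interval that overlapped that of hbae1.2 (72.2 FPKM). In footprints hbae3 came first in both genotypes, at 351 TPM in siblings and 404 TPM in mutants. hbbe1.3 was second in siblings at 209 TPM, and hbbe1.1 second in mutants at 200.3 TPM. The place of hbbe1.1 in footprints rests on the shorter length behind its TPM. By counts, which are not corrected for length, it had 1393 in mutants, against 1674 for hbbe1.3. Neither order is preferred here. TPM values of the libraries share no scale with the TMM ratios, since the 4 abundant loci are counted in them. Orders, shares and ratios within a library are read from them. Ratios between libraries from TPM serve only as an alternative scaling.

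The RNA ratios of the measured genes lay in separate ranges. hbae3, hbbe1.1 and hbbe2 lay between -0.80 and -0.61, and the 5 genes hbae1.1, hbae1.2, hbae1.3, hbbe1.2 and hbbe1.3 between -3.09 and -2.20, with no gene between. Each range held alpha and beta genes. Values of single copies depend on how reads were split, and the hbbe1 copies fell in both ranges. The sum of the hbbe1 copies had an RNA log2 ratio of -1.38, between the ranges. That of the hbae1 copies had -2.32, within the lower range. Summed, the 5 genes with the lower ratios had log2 ratios of -2.47 in RNA and -1.61 in footprints, and the other 3 had -0.73 and -0.93. The ranges were closer in footprints, where the 8 genes lay between -2.98 and -0.82. The groups were formed after the values were seen and are given as a description.

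**Figure D2:**
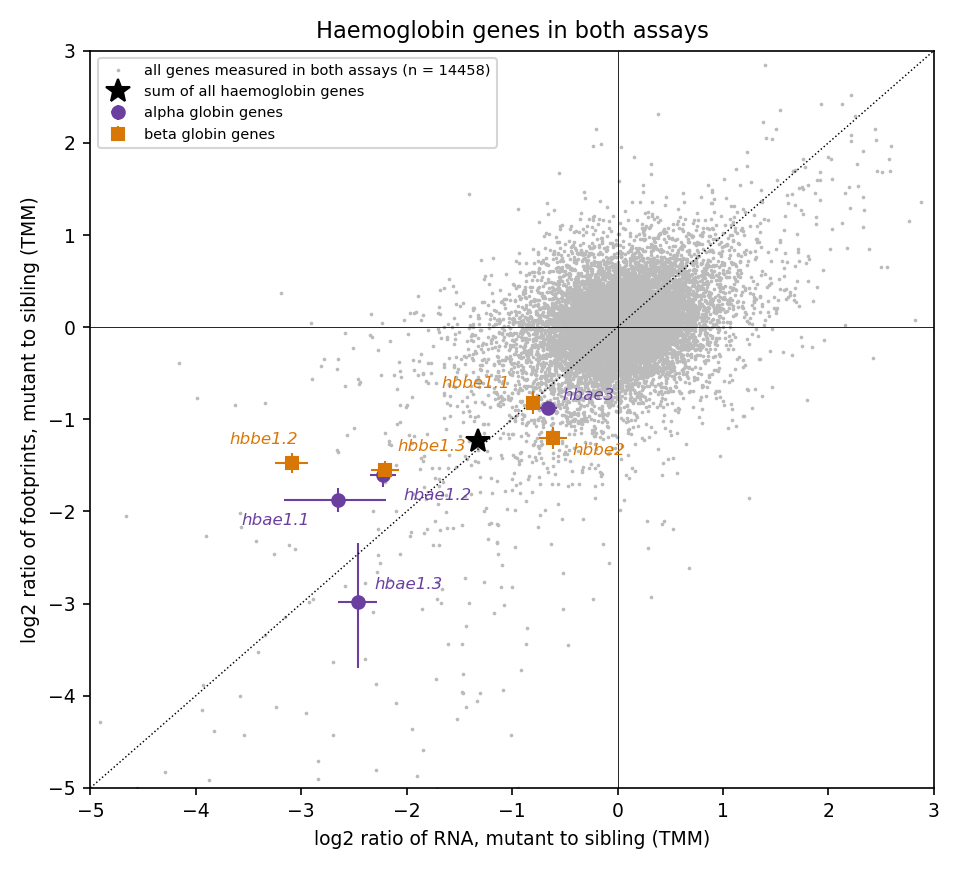
Log2 ratio of mutant to sibling in RNA (x axis) and in footprints (y axis), TMM-scaled, for 14458 genes measured in both assays (grey), the measured alpha (circles) and beta (squares) genes, and the sum of all haemoglobin genes (star). Bars are 95% counting intervals, the dotted line marks equal ratios, and 47 genes beyond the axes are not drawn. All 8 haemoglobin genes lie below 0 on both axes, with hbae3, hbbe1.1 and hbbe2 nearest to the other genes.

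The mix of globins differed between genotypes accordingly. hbbe1.1 made up 29.8% of the summed RNA level per length in siblings and 43.2% in mutants. hbae3 made up 15.6% and 25.0%. The shares of hbbe1.2 (14.1% and 4.17%) and hbae1.2 (14.99% and 8.08%) were smaller in the mutant library. In footprints the shifts had the same direction and were smaller: hbae3 held 28.2% and 35.6% of the summed level, and hbbe1.1 13.4% and 17.7%. The size of the footprint shares of hbbe1.1 rests on the shorter length behind its TPM. Within the alpha genes, hbae3 held 39.7% of the RNA level in siblings and 66.8% in mutants. Its share of alpha footprints was 58.4% and 72.1%. Shares within a library do not depend on the scaling between libraries.

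**Figure D3:**
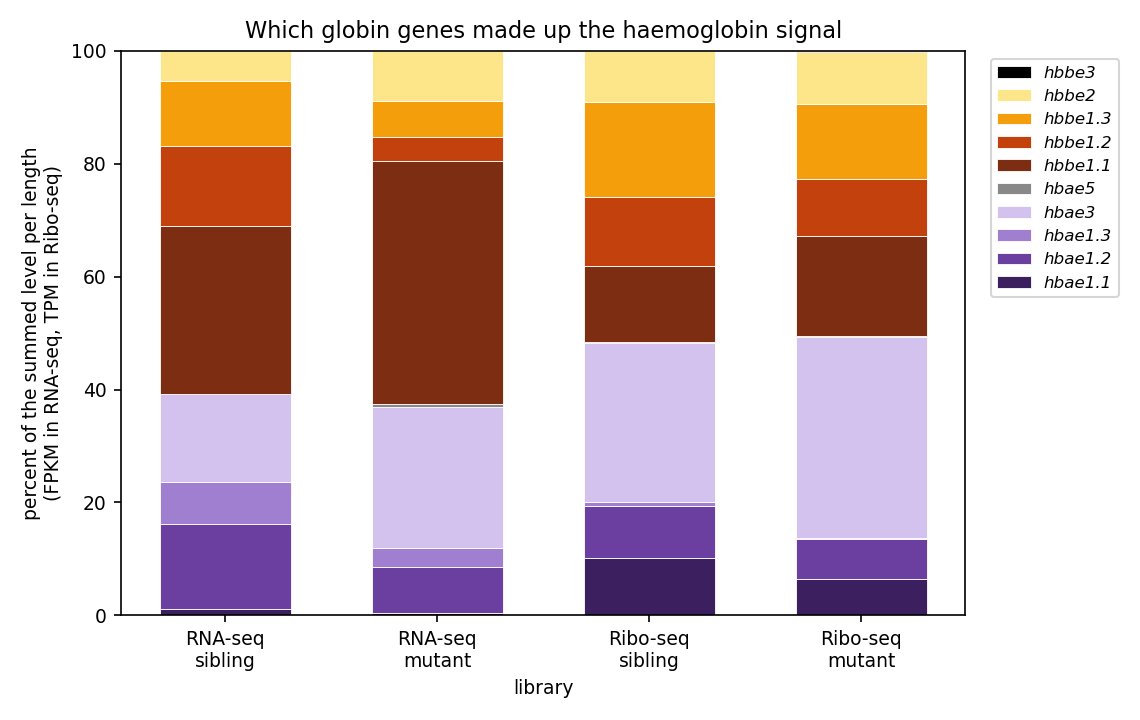
Share of each gene in the summed level per length of the haemoglobin genes (y axis, percent of FPKM in RNA-seq and of TPM in Ribo-seq) in the 4 libraries (x axis), 1 library per bar. hbbe1.1 and hbae3 take larger shares in the mutant library than in the sibling library of both assays, and hbbe1.2 and hbae1.2 smaller ones.

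Alpha and beta globins, each summed, were lower in the mutant libraries to a similar extent. Alpha genes had 7123 RNA counts in siblings and 3350 in mutants, a log2 ratio of -1.38 (-1.44 to -1.32). Beta genes had 11342 and 5682, a log2 ratio of -1.29 (-1.34 to -1.25). In footprints alpha genes had 5172 and 6076 counts (-1.18, from -1.24 to -1.13), and beta genes 5101 and 5537 (-1.30, from -1.35 to -1.24). The family with the lower ratio was alpha in RNA and beta in footprints, and the differences between families were small beside the ratios themselves.

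The alpha to beta ratio of RNA counts was 0.628 (0.610 to 0.647) in the sibling library and 0.590 (0.565 to 0.615) in the mutant library. Its log2 change was -0.09 (-0.17 to -0.02). In footprints the ratio was 1.01 (0.975 to 1.05) and 1.097 (1.06 to 1.14), a log2 change of 0.11 (0.04 to 0.19). The changes thus had opposite signs in the 2 assays, and each was under 0.2 on the log2 scale. Per length, the ratio was 0.646 and 0.596 in RNA and 0.938 and 0.978 in footprints. Alpha RNA was below beta RNA in both genotypes, whereas alpha and beta footprints were near equal. This contrast leans on hbbe1.1. In siblings it held 5557 of 11342 beta RNA counts and 921 of 5101 beta footprint counts. In mutants it held 3911 of 5682 and 1393 of 5537. No ratio without hbbe1.1 alone is given here, so the contrast is not read as one between the families. These ratios are taken within a library and need no scaling. The length behind hbbe1.1 was 0.626 of that of hbbe1.2 in Ribo-seq and equal to it in RNA-seq. A shorter length can lower the beta footprint counts, and its part in the contrast between assays was not tested.

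Leaving out hbae3 and hbbe1.1 moved the alpha to beta ratio in both assays. Without both genes, the alpha to beta ratio of counts was 0.724 in the sibling and 0.603 in the mutant RNA-seq library (log2 change -0.26), and 0.516 and 0.410 in footprints (-0.33). The hbae1 to hbbe1 copies stood at 0.404 and 0.211 in RNA, a log2 change of -0.94 (-1.05 to -0.83). In footprints they stood at 0.524 and 0.386, a log2 change of -0.44 (-0.55 to -0.33). Against hbbe1.2 and hbbe1.3 alone, the hbae1 copies had an RNA ratio of 0.875 and 1.08 (log2 change 0.30, from 0.16 to 0.45) and a footprint ratio of 0.676 and 0.568 (-0.25, from -0.37 to -0.13). The alpha to beta change therefore depended on the genes compared, from -0.94 to 0.30 in RNA and from -0.44 to 0.11 in footprints. The RNA value of 0.30 leaves out hbbe1.1, the hbbe1 copy with the smallest RNA difference, and this choice by itself raises the change. That value also rests on how reads were split among the copies. The RNA value of -0.94 leaves out hbae3, the measured alpha gene with the smallest RNA difference, and keeps hbbe1.1. This choice by itself lowers the change, so no direction is read from either value.

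**Figure D4:**
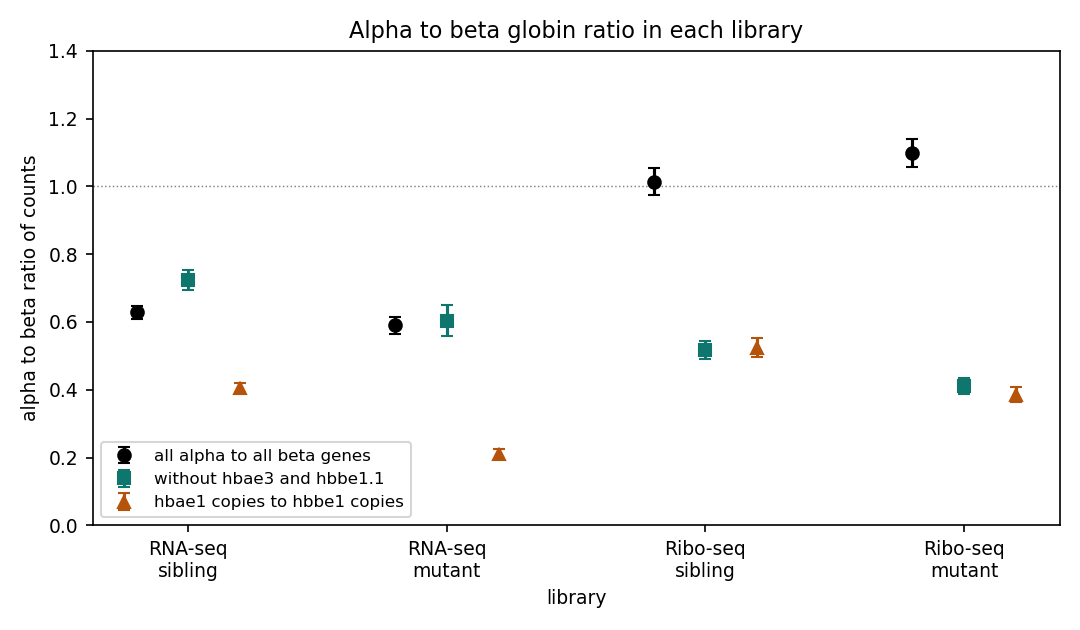
Alpha to beta ratio of counts (y axis) in each of the 4 libraries (x axis), for all genes, without hbae3 and hbbe1.1, and for the hbae1 against the hbbe1 copies. Bars are 95% counting intervals and the dotted line marks equal counts. With all genes the ratio is 0.628 and 0.590 in RNA-seq and 1.01 and 1.097 in Ribo-seq, and both other ratios are lower in the mutant library of each assay.

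Translation efficiency differed among the genes in both directions. Of the 8 measured genes 1 was higher by a ratio of 2 or more, hbbe1.2 (log2 ratio 1.62, from 1.43 to 1.81), and 0 were lower. Among 14458 genes 3.55% were higher and 3.18% lower. Scaled by total counts, 4 of the 8 were higher and 0 lower, against 20.0% and 0.830% of all genes. hbae1.1 stood at 0.78 (0.30 to 1.26), hbbe1.3 at 0.65 (0.49 to 0.81) and hbae1.2 at 0.62 (0.44 to 0.80). On the other side were hbbe2 at -0.59 (-0.77 to -0.41), hbae1.3 at -0.52 (-1.18 to 0.14) and hbae3 at -0.22 (-0.32 to -0.12), and hbbe1.1 was at -0.02 (-0.15 to 0.12). The value of hbbe1.2 can depend on how reads were split among the copies. Summed over the 3 hbbe1 copies the log2 ratio was 0.05 (-0.03 to 0.13). Over hbbe1.2 and hbbe1.3 alone it was 1.11 (0.98 to 1.23), past the ratio of 2. hbbe1.1 held the most RNA counts of the copies, so the sum of 3 does not show the part of the split. With the hbae1 and hbbe1 copies each summed, 0 of 4 units passed the ratio for translation efficiency, 2 of 4 were lower by RNA and 3 of 4 by footprints. Of all measured genes, 6.16% were lower by RNA and 3.61% by footprints. The units were formed after the values were seen. The hbae1 copies summed had a log2 ratio of 0.55 (0.41 to 0.68). Of the genes with whole counts and enough of them, hbae3 and hbbe2 were both below 0.

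hbae5 and hbbe3, of the smaller cluster, were near the detection limit. hbae5 (ENSDARG00000045142) had 13 RNA counts in siblings and 43 in mutants, a log2 ratio of 1.39 (0.51 to 2.45). Its footprints were 10 and 19, a log2 ratio of -0.52 (-1.67 to 0.78). hbbe3 (ENSDARG00000038147) had 0 RNA counts in siblings and 10 in mutants, at least 2.72-fold higher when the 0 is set to a floor of 3 counts in that library, and the 95% counting interval of the ratio starts at 1.83. In footprints it had 1 and 25 counts, a ratio of 9.37 (1.53 to 385). By RNA both thus stood higher in the mutant library, against the direction of the other 8 genes. Their levels were low, with hbae5 at 1.44 FPKM in siblings and 4.17 FPKM in mutants.

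The other globin genes were taken from a list. The adult genes hbaa1, hbaa2, hbba1 and hbba2 had 0 counts in every library after rounding, except for 1 count of hbaa1 in the mutant RNA-seq library. hbba1 had a level of 0.045 TPM in the mutant Ribo-seq library, from an estimated count that rounded to 0. hbae4, a further embryonic alpha gene, had 21 and 20 RNA counts and 5 and 3 footprint counts. Globins that work outside red cells were measured in 5 cases, and 0 of the 5 passed the 2-fold rule in either assay. Myoglobin (mb), the oxygen store of muscle, had 603 and 1433 RNA counts (log2 ratio 0.95) and 482 and 1456 footprint counts (0.18). Neuroglobin (ngb), of neurons, had log2 ratios of -0.36 in RNA and -0.06 in footprints. The cytoglobins cygb1 and cygb2 had -0.24 and -0.43 in RNA, and 0.13 and 0.33 in footprints. adgb, androglobin, had 0.02 and 0.24. xgb, globin X, had 6 and 9 RNA counts and was not measured.

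Heme, which each globin chain carries, is made by a pathway whose red cell-specific first enzyme is alas2. Of 17 heme synthesis genes 16 were measured by RNA, and 0 were lower or higher by a ratio of 2, with a median log2 ratio of -0.26. By footprints 0 of 14 passed, with a median of -0.10. alas2 had 420 and 277 RNA counts (-0.89) and 85 and 165 footprint counts (-0.46). alas1, the form of other tissues, had -0.24 and 0.03. alad, the next enzyme, had -0.48 in RNA and -0.99 in footprints, and fech, which puts iron into the ring, had 0.05 and 0.29. The red cell enzyme alas2 thus had the lowest RNA ratio of this list, at a smaller difference than the haemoglobin sum.

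Red cell membrane and cytoplasm genes gave 4 of 16 lower by RNA and 0 higher (median -0.45), and 2 of 14 lower by footprints (median -0.21). slc4a1a, the anion exchanger band 3, had 547 and 227 RNA counts (-1.56) and 196 and 115 footprint counts (-2.18). hemgn, hemogen, a nuclear protein of blood-forming cells, had 254 and 77 RNA counts (-2.01). prdx2, a peroxide-removing enzyme abundant in red cells, had 6618 and 2593 RNA counts (-1.65), and -0.41 in footprints. rhag, the Rh-associated glycoprotein, had 4911 and 3739 RNA counts (-0.69) and -0.68 in footprints. aqp1a.1, a water channel, had -0.49 and -0.20. cahz and epb41b, also set as red cell markers, had RNA log2 ratios of -0.87 and -0.76. sptb went the other way by RNA, with 679 and 1262 counts (0.60), and had -0.71 in footprints. Of the 16 genes measured by RNA, 12 were below 0. RNA log2 ratios of this list ranged from -2.01 to 0.60, so the list held genes below the haemoglobin sum and genes above the median of all genes.

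Some regulators of red cell formation, gata1a and klf1 among them, stayed under the count minimum. 12 of 19 genes were measured by RNA, of which 0 passed the ratio (median -0.16), and 10 by footprints, of which 1 was lower. This was myb, a factor of blood progenitors, with 220 and 203 footprint counts (-1.53). By RNA myb had 332 and 352 counts (-0.21). With total counts its footprint log2 ratio was -0.82, under the 2-fold rule. gata1a, the master factor of red cell development, had 32 and 22 RNA counts, and klf1 had 15 and 18. tal1, a factor of early blood cells, had -0.62 in RNA and -0.38 in footprints, and klf17, a Krüppel-like factor, had -0.81 and -0.19. klf3 had 1348 and 2141 RNA counts (0.37) and -0.31 in footprints. Of the 12 regulators measured by RNA, 8 were below 0. Endothelial genes, which mark the vessels that hold the blood, had medians of 0.02 in RNA (12 genes) and 0.15 in footprints (11 genes), with 1 gene higher and 0 lower by RNA and 0 called by footprints. The gene higher by RNA was vwf, von Willebrand factor, at 119 and 302 counts (1.05), and esama, an adhesion molecule of vessel walls, had the lowest RNA ratio of the list at -0.58. cdh5, the cadherin of vessel walls, had 720 and 816 RNA counts (-0.11), and kdrl, a VEGF receptor, 1138 and 1491 (0.10). The part of red cell number in the haemoglobin ratios was not tested.

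**Figure D5:**
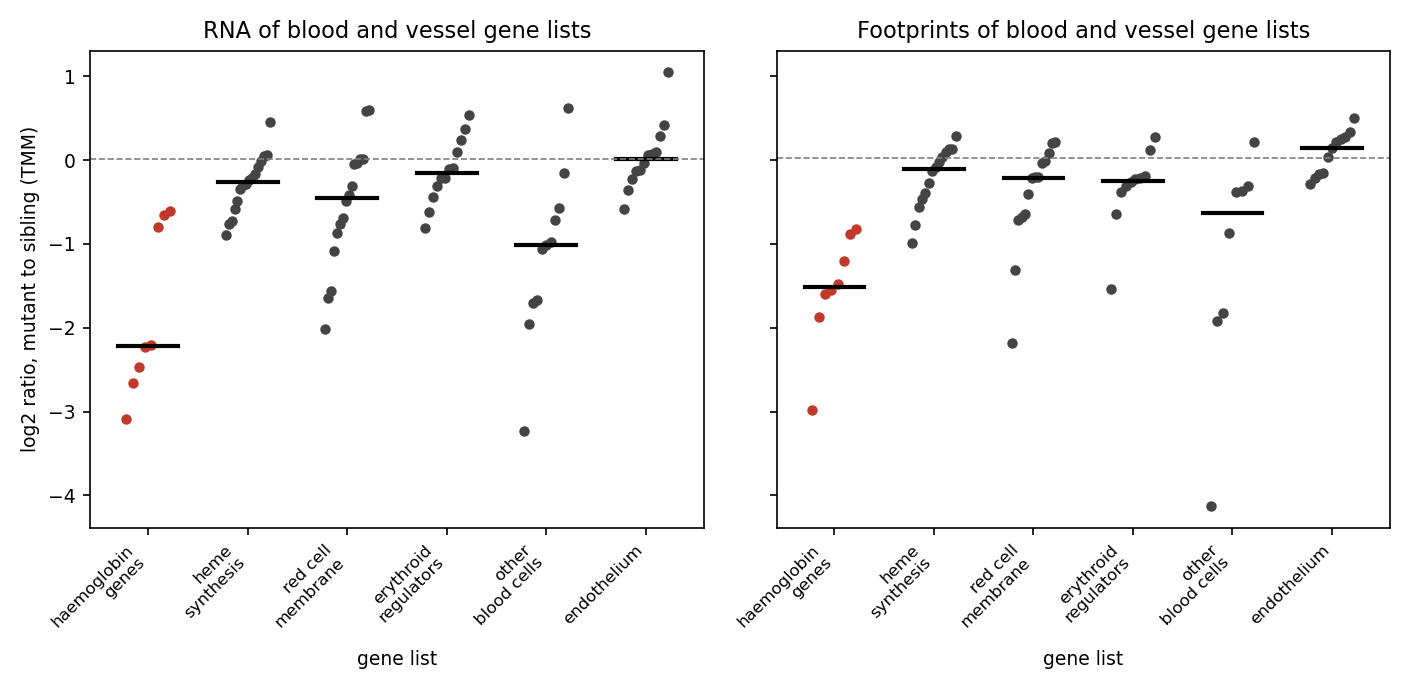
Log2 ratio of mutant to sibling (y axis, TMM-scaled) of the measured genes of each list (x axis), RNA left and footprints right. Each point is a gene, the black bar is the median of the list and the dashed line the median of all genes. Haemoglobin genes (red) have medians of -2.21 and -1.51, below the medians of the other 5 lists drawn, of which other blood cells have the lowest (-1.01 and -0.62).

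Among 3494 genes with 1000 counts or more in each assay, the 6 nearest to the haemoglobin sum in both ratios (Euclidean distance, over 1 ratio per assay) were crygm2d6, gpnmb, crip1, rpl22l1, crygm2d16 and krt97. crygm2d6, a lens gamma crystallin gene, was the closest, at -1.33 in RNA and -1.33 in footprints (distance 0.09). gpnmb, a glycoprotein of pigment cells and macrophages, had -1.49 and -1.19. The farthest of the 6, the keratin gene krt97, had -1.08 and -1.15 (distance 0.26).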

How the data were processed

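The authors deposited estimated counts beside FPKM (RNA-seq) and estimated counts beside TPM (Ribo-seq), made with HISAT2 and featureCounts per the submitters' processing notes. The sources used here give no versions, no genome build and no rule for reads that match several places. The tables also hold log2 fold changes, p-values and FDR, which were not used. A row without a gene ID (0.00303% of sibling and 0.000746% of mutant Ribo-seq counts) was left out.

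Estimated counts were rounded to whole numbers and scaled by TMM (edgeR 4.0.16, R 4.3.3; factors 0.972, 1.03, 0.781 and 1.28). Log2 ratios of CPM were taken with 0.5 counts added in Python 3.11.15 with scipy 1.17.1. Count intervals are exact Poisson, ratio intervals exact conditional binomial, and translation efficiency intervals come from the Poisson error of 4 counts. The code was tested on simulated data. Alternatives were total counts, DESeq2 1.42.0 size factors, FPKM or TPM with 1 added, 2 added counts, other minimums and ratios, and sums without a gene.

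Named genes were the members, noc4l, the other globins, of each list up to 4 of the most abundant and 4 of the largest ratio, and 6 of like pattern. The red cell markers gata1a, klf1, cahz and epb41b were added to these. Of 162 genes in 11 lists, 154 were found. Members and lists were chosen with earlier results of these data known.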

Additional observations from a re-analysis of the deposited data

How the results depend on the processing

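Every summed ratio kept its sign in RNA and in footprints under all alternatives run. With DESeq2 size factors or 2 added counts, no sum moved beyond its counting interval. Scaled by total counts, the sums of all, alpha and beta genes had log2 ratios of -1.24, -1.30 and -1.21 in RNA, -0.53, -0.47 and -0.58 in footprints, and 0.72, 0.83 and 0.62 in translation efficiency. Without the 4 most abundant loci in the totals, RNA was the same (-1.24, -1.30 and -1.21) and translation efficiency was -0.0096, 0.10 and -0.10. Without the haemoglobin genes in the totals the values were -1.24, -1.30 and -1.21, then -0.53, -0.47 and -0.58, then 0.72, 0.83 and 0.63. From FPKM and TPM with 1 added they were -1.25, -1.32 and -1.21, then -0.13, -0.10 and -0.16, then 1.12, 1.22 and 1.05. On that scale the median of all genes was 0.95 in footprints, so that the haemoglobin sum lay 1.09 below it.

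Without hbae3 the sum of all genes was -1.50 in RNA and -1.42 in footprints, and that of the alpha genes -2.26, -1.76 and, for translation efficiency, 0.50. Without hbbe1.1 the beta sum was -2.00, -1.43 and 0.57, and, chosen after seeing the data, the sum of all genes -1.63, -1.29 and 0.34. The alpha to beta log2 change without both genes was -0.26 in RNA and -0.33 in footprints. At a ratio of 1.5 the number of genes past it was 8 by RNA and 8 by footprints, all lower. At the ratio of 2, the number by footprints was 2 with total counts and 1 with TPM, all lower. For translation efficiency it was 4 with total counts and 4 with FPKM and TPM, all higher, 3 with a count minimum of 10 or none (2 lower, 1 higher) and 5 at a ratio of 1.5 (1 lower, 4 higher). With that minimum or none, 5 genes were lower and 2 higher by RNA, and 6 lower and 1 higher by footprints. With the copies of hbae1 and of hbbe1 each summed, also chosen after seeing the data, it was 2, 3 and 0. Of all genes, 12.6% were lower by RNA at a ratio of 1.5. With total counts at a ratio of 2, 1.27% were lower by footprints and 20.0% higher by translation efficiency. The other counts of this paragraph have no share of all genes beside them and describe the haemoglobin genes only. Of 160 values of single named genes, 95 moved beyond their interval with total counts and no called value changed sign. Leaving out a replicate was not possible with 1 library per group. No paired analysis was possible because each genotype has 1 library per assay and the labels carry no replicate numbers. Depth limits hbae5, hbbe3, gata1a and klf1, which stayed under the count minimum.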

Other observations

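Iron handling genes split in direction. tfa, transferrin, the iron carrier of plasma that the liver makes, had 42521 and 2670 RNA counts in sibling and mutant (log2 ratio -4.29) and -5.21 in footprints. hamp, the iron hormone hepcidin, had 5 and 206 RNA counts (4.94) and 1 and 30 footprint counts. slc40a1, the iron exporter ferroportin, had -1.06 in RNA and 0.31 in footprints. fth1a, a ferritin heavy chain that stores iron, had -0.53 and 0.62. Of 16 measured iron genes 1 was higher and 2 were lower by RNA, and 0 were higher and 1 lower by footprints. Among heme breakdown genes, hmox1a, an inducible heme oxygenase, had 649 and 346 RNA counts (-1.20) and 31 and 124 footprint counts (0.57).

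Other blood cells were lower by RNA in 6 of 11 measured genes (median -1.01) and by footprints in 3 of 8. lyz, lysozyme of myeloid cells, had 226 and 29 RNA counts (-3.23), and rag1, of developing lymphocytes, 248 and 78 (-1.96). lcp1, a leukocyte plastin, had 483 and 181 (-1.71). mpx, the neutrophil peroxidase, had 433 and 819 RNA counts (0.62) and -0.37 in footprints. Heart genes had medians of 0.66 in RNA and -0.51 in footprints. Liver genes had medians of -0.55 and -2.40, with 5 lower and 1 higher of 11 by RNA and 11 of 11 lower by footprints. By RNA fabp10a, a liver fatty acid-binding protein, had 5052 and 33 counts, whereas fga, fgb (both fibrinogen chains) and c3a.1 (complement) had log2 ratios of 0.44, 0.29 and 0.28. The gene higher by RNA was cp, ceruloplasmin, at 1031 and 3002 counts (1.25), named here after its value was seen. The part of these cells in the haemoglobin ratios was not tested.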
